A study of Mus musculus with 7 samples.

Results

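Neutrophils carry proteases that can digest tissue, and they also make inhibitors of such enzymes. Transcripts of 5 antiprotease genes were followed in mouse neutrophils: Slpi, Serpinb1a, Wfdc17, Wfdc21 and Timp2. They were chosen by symbol among the 28719 gene symbols of the 7 deposited count tables, and each is listed in every table. Healthy neutrophils came from untreated male C57BL/6J mice, as 1 library each of bone marrow, blood and spleen for each of 2 runs. Each library pooled 3 mice, which gave all tissues of their run according to the methods of the study, and these mice were 6 weeks old in run 1 and 8 weeks old in run 2. A single further library held 5 conditions marked by hashtag antibodies, all from male C57BL/6J mice aged 8 weeks: blood of healthy mice, blood and joint lavage taken on day 7 of arthritis after transfer of K/BxN serum, which carries autoantibodies that inflame joints, airway (bronchoalveolar) lavage and peritoneal lavage, each 3 h after 25 ng of the cytokine IL-1β. All cells had been sorted as live CD11b+ Ly6G+ cells.

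From the healthy tables, cells were kept when S100a8 and S100a9, the calprotectin subunits that fill neutrophil cytoplasm, made up at least 3% of their transcripts counted by unique molecular identifier (UMI). Between 5 and 185 cells a library lay within 1 percentage point of that limit. This kept 1306 and 3672 cells of blood (runs 1 and 2), 1206 and 3426 of bone marrow, and 1135 and 2010 of spleen. From the inflammation library, cells that the authors had matched to a granulocyte reference type were kept, which gave 509 cells of healthy blood, 814 of arthritis blood, 2857 of arthritic joint, 380 of IL-1β lung and 292 of IL-1β peritoneum. The kept cells of a healthy library summed to between 1360064 and 9104133 UMIs, and those of a condition to between 942688 and 10293966. A list of 10 neutrophil markers took 158533 to 393342 UMIs per 1000000 (CPM). It includes S100a8 and S100a9, and its 8 other markers (Csf3r, Retnlg, Mmp8, Mmp9, Ly6g, Cxcr2, Il1b and Hdc) took 18782 to 38575 CPM. Markers of other cell types were low next to that, with the exception of haemoglobin and other erythroid transcripts at 30356 CPM in blood of run 2 (2 to 915 CPM elsewhere). Monocyte or macrophage markers reached 1450 CPM in bone marrow of run 1, of which Ly6c2 alone gave 1342 CPM, and B cell markers reached 927 CPM in spleen of run 2. Pairs of libraries shared 0 to 36 cell barcodes.

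Slpi (secretory leukocyte peptidase inhibitor) is a secreted protein with WAP domains that blocks neutrophil elastase and cathepsin G. Serpinb1a is the mouse counterpart of the leukocyte elastase inhibitor SERPINB1, a serpin that stays inside the cell and traps elastase, proteinase 3 and cathepsin G. Wfdc17 and Wfdc21 encode small secreted proteins with a WAP four-disulfide core, the fold that Slpi shares, and Timp2 inhibits matrix metalloproteinases. Neutrophil maturation in the bone marrow runs from dividing progenitors that make primary granule proteases, through cells that make secondary granule proteins, to mature cells that are released to blood.

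On GRCm38, Slpi lies at chr2:164354070-164389095 on the minus strand and Serpinb1a at chr13:32842092-32851185 on the minus strand. Wfdc17 (chr11:83703991-83706268, plus strand) and Wfdc21 (chr11:83746940-83752642, plus strand) are neighbours, 40672 bases apart with only Wfdc18 between them, and Timp2 lies on the same chromosome at chr11:118301069-118355740 on the minus strand. All 5 are protein coding. Timp2 overlaps Cep295nl on the same strand, and Slpi overlaps Mir7678, so reads in the shared parts are uncertain. Serpinb1a has close copies, Serpinb1b and Serpinb1c on chromosome 13, between which reads could be split. Serpinb1b stood at 13.7 CPM in bone marrow and 11.9 CPM in spleen of run 1 and at 0 UMIs, or was not listed, in the other healthy libraries and the 5 conditions.

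The promoter table of RefSeq (GRCm38.p6) matched 3 of the 5 genes, Slpi, Wfdc17 and Timp2. Those of Slpi and Wfdc17 are shown, since both genes were called lower in bone marrow than in blood and both were higher in the more mature cells. They run from 250 bases before the start of transcription to 50 bases into the gene, at chr2:164356458-164356757 (minus strand) for Slpi and chr11:83703806-83704105 (plus strand) for Wfdc17. The start is the one RefSeq gives, and for both genes the GENCODE coordinates above begin farther upstream. Capitals mark matches on either strand to 1 of 4 motifs. These are a loose form of the C/EBP site, spelled TTNNGNAAT, the core of PU.1 sites, spelled GAGGAA, the box near many starts of transcription that is spelled TATAAA, and the box spelled CCAAT.
Slpi: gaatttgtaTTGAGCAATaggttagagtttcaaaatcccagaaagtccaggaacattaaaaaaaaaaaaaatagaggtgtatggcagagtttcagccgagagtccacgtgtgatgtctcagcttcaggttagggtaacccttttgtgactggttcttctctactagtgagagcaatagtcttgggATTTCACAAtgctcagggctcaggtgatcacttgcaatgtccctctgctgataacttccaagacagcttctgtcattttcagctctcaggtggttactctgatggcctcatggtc
Wfdc17: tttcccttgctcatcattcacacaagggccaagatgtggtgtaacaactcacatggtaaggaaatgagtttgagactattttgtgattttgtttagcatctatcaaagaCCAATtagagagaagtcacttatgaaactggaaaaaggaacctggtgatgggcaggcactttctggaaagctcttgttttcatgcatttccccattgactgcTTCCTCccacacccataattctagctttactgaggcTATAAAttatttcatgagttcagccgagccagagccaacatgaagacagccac
The Slpi promoter held TTNNGNAAT with its first base at -241 on the plus strand and at -65 on the minus strand, counted from the start of transcription. That of Wfdc17 held CCAAT at -141, GAGGAA at -39 on the minus strand and TATAAA at -3. Of 32851 promoters of the same length, 11.46% held the C/EBP letters, 37.41% the CCAAT letters, 28.28% the PU.1 letters and 13.62% the TATAAA letters. Both promoters were poor in G and C (43.33% in Slpi and 42% in Wfdc17), whereas that of Timp2 reached 68.67%. These matches are letters only and show no bound factor.

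The 5 genes together took 1.18% to 1.53% of all UMIs in the healthy libraries, and Slpi and Wfdc21 made up most of that share. What differed between tissues was the mixture. In bone marrow Wfdc21 gave 75.5% and 70.6% of the UMIs of the 5 genes (runs 1 and 2) and Slpi 18.4% and 21.3%. In blood Slpi gave 53.5% and 47.6% and Wfdc21 34.0% and 17.3%. One Wfdc21 UMI was thus met by 0.244 and 0.302 Slpi UMIs in bone marrow and by 1.57 and 2.75 in blood, while spleen of run 1 (0.362) lay near bone marrow and spleen of run 2 (1.77) near blood.

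Slpi was the most abundant member in blood. It stood at 6313 CPM in run 1 and 7258 in run 2 in blood (6786 ± 668, mean ± SD, n = 2 pools, as for every tissue below), at 3397 and 5924 CPM in spleen (4661 ± 1787) and at 2315 and 2673 CPM in bone marrow (2494 ± 253). The blood and bone marrow libraries did not overlap, and both spleen libraries lay between them. Bone marrow was lower than blood by log2 -1.16 (SE 0.23) in edgeR's quasi-likelihood test with the run as a block, with an adjusted p of 0.0145. The ratio of CPM was nearly the same in both runs, at 0.367 and 0.368. The fit scales libraries by TMM factors instead of totals, so its difference is not that of the CPM. S100a8 and S100a9 took a median of 37.3% and 36.2% of the UMIs of a bone marrow cell and 17.4% and 16.7% of those of a blood cell, and their part in the CPM was not tested. Spleen was not called different from blood (log2 -0.47, SE 0.22, adjusted p = 0.492) or from bone marrow (log2 0.69, SE 0.23, adjusted p = 0.189), so the middle place of spleen is not separated from its neighbours.

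Serpinb1a was the opposite in direction and far less abundant. It was counted at 565 and 538 CPM in bone marrow (551 ± 19.0), at 533 and 139 CPM in spleen (336 ± 278) and at 174 and 35.3 CPM in blood (104 ± 97.7). Bone marrow was higher than blood by log2 3.25 (SE 0.61, adjusted p = 0.0126), a 9.53-fold difference. Both bone marrow values were close together, whereas blood and spleen spread widely between runs, and bone marrow held 3.26 times the CPM of blood in run 1 and 15.2 times in run 2. The fitted difference was log2 1.92 without bone marrow of run 2 and 4.29 without bone marrow of run 1, so its size rests on single libraries. Neither spleen comparison was called, at log2 1.94 against blood (SE 0.56, adjusted p = 0.403) and log2 -1.31 against bone marrow (SE 0.57, adjusted p = 0.308).

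Wfdc17 was the member that differed most between bone marrow and the other tissues. Blood stood at 1161 and 5142 CPM (3151 ± 2815), spleen at 442 and 4648 CPM (2545 ± 2974) and bone marrow at 61.5 and 282 CPM (172 ± 156). Run 2 lay far above run 1 in each tissue, and within each run bone marrow was the lowest. Bone marrow was lower than blood by log2 -3.93 (SE 0.31, adjusted p = 0.0019), and only 12 of the 7809 genes tested had a smaller p. Spleen was higher than bone marrow by log2 3.30 (SE 0.30, adjusted p = 0.0108), with a smaller p for 5 genes. Spleen and blood were not called different (log2 -0.63, SE 0.27, adjusted p = 0.483).

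Wfdc21 was the most abundant member in bone marrow. It stood at 9498 and 8849 CPM there (9173 ± 459), at 9391 and 3343 CPM in spleen (6367 ± 4277) and at 4015 and 2643 CPM in blood (3329 ± 970). Spleen of run 1 was as high as bone marrow and spleen of run 2 nearly as low as blood. Bone marrow was higher than blood by log2 1.83 (SE 0.44, adjusted p = 0.0276), a 3.56-fold difference, while spleen was called different from neither blood (log2 1.00, SE 0.44, adjusted p = 0.483) nor bone marrow (log2 -0.83, SE 0.44, adjusted p = 0.400). The neighbours Wfdc17 and Wfdc21 thus moved in opposite directions between blood and bone marrow.

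Timp2 was the flattest of the 5. It was counted at 148 and 183 CPM in blood, 140 and 190 CPM in bone marrow and 137 and 166 CPM in spleen, and all 3 tissues overlapped. The difference between bone marrow and blood was log2 0.28 with a 95% interval from -0.27 to 0.84 (adjusted p = 0.428), so the test bounds a higher level in bone marrow to below 2-fold without showing that the levels are equal. Spleen against blood gave log2 0.01 (SE 0.24, adjusted p = 0.994) and spleen against bone marrow log2 -0.27 (SE 0.24, adjusted p = 0.622).

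**Figure D1:**
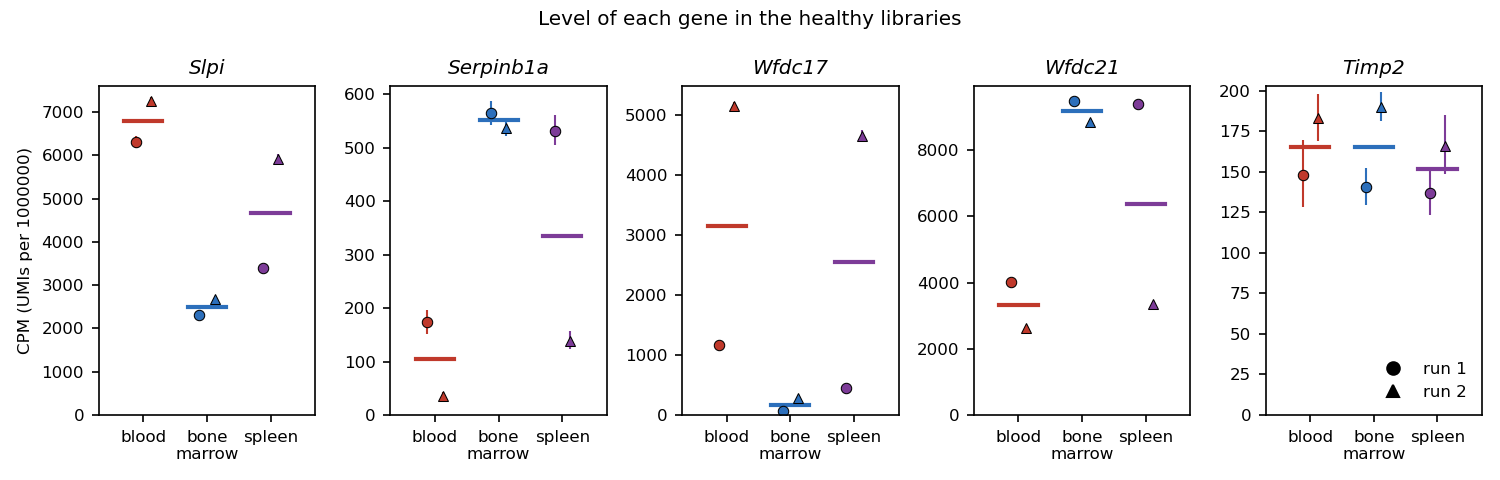
Transcript level of each antiprotease gene (UMIs per 1000000) in the healthy tissues. Circles are run 1 and triangles run 2, error bars are 95% Poisson intervals and horizontal bars are means of the 2 pools; Slpi and Wfdc17 are lowest in bone marrow, Serpinb1a and Wfdc21 are lowest in blood, and Timp2 lies between 137 and 190 CPM in all 6 libraries.

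In all, 2 members were called higher and 2 lower in bone marrow than in blood, against a background of 9.94% of the tested genes called higher and 11.7% called lower and a median log2 difference of 0.02 over all tested genes. Between spleen and blood no member was called (1 at an unadjusted p below 0.05, Serpinb1a; DESeq2 called 1, Serpinb1a as well), where 0% of genes were called higher and 0.0512% lower. Between spleen and bone marrow 1 member was called higher, where 2.24% of genes were called higher and 0.512% lower. The calls rest on the block and on both blood libraries: without the run in the model the 4 differences between bone marrow and blood were log2 -1.15 for Slpi, 2.73 for Serpinb1a, -3.89 for Wfdc17 and 1.76 for Wfdc21, with adjusted p from 0.116 to 0.175, and Wfdc17 between spleen and bone marrow was log2 3.53 (adjusted p = 0.586). Without blood of run 1 they were log2 -1.17, 3.70, -3.75 and 1.59 and without blood of run 2 log2 -1.14, 2.72, -4.08 and 2.11 in the same order, with adjusted p from 0.0509 to 0.308 and from 0.0576 to 0.181, and the call of Wfdc17 between spleen and bone marrow was lost as well (log2 3.26 in both cases). Without bone marrow of run 1, Serpinb1a (log2 1.92 against blood and -2.37 against bone marrow) and Wfdc21 (log2 -1.47 against bone marrow) were called in spleen, without bone marrow of run 2 Serpinb1a was called against blood (log2 1.92), and without spleen of run 1 Slpi (log2 0.73), Serpinb1a (log2 -1.96) and Wfdc21 (log2 -1.71) were called against bone marrow. Without spleen of run 2 Wfdc21 was called higher in spleen than in blood (log2 1.74).

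**Figure D2:**
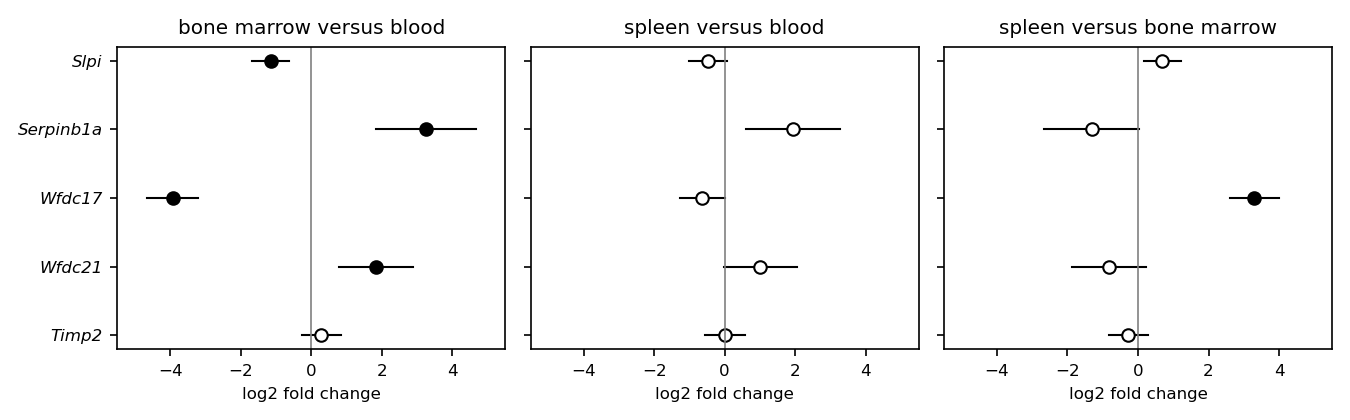
Log2 difference between healthy tissues for each antiprotease gene from edgeR's quasi-likelihood fit. Points are estimates, lines are 95% intervals and filled points passed an adjusted p of 0.05; 4 of 5 genes passed between bone marrow and blood, and only Wfdc17 passed between spleen and bone marrow.

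Markers of other cell types were called as well. Between bone marrow and blood 4 of 9 tested monocyte or macrophage markers were higher and 2 lower. Of 8 B cell markers 1 was higher and 2 lower, and the platelet genes Pf4 and Ppbp were lower. Between spleen and bone marrow 4 of 8 B cell markers were higher and 0 lower. Some, such as C1qa, Pf4 and Ighd, are not listed in every table of run 1. Cells with markers of another type were therefore also left out. That rule took away 924 of 1206 and 1998 of 3426 bone marrow cells, mostly through Ly6c2, which young neutrophils share with monocytes. In the remaining cells the bone marrow difference of Slpi from blood was log2 -0.43 (adjusted p = 0.0645), that of Wfdc17 was log2 -2.50, Timp2 was called higher in bone marrow than in blood (log2 0.97, adjusted p = 0.00391), and Serpinb1a (log2 -2.31), Wfdc21 (log2 -1.55) and Timp2 (log2 -0.81) were called lower in spleen than in bone marrow. When Ly6c2 was not counted as such a marker, an alternative chosen after seeing the data, 159 and 293 bone marrow cells and 55 and 435 blood cells were left out, the latter including cells with erythroid and platelet markers, and the same 4 members were called between bone marrow and blood.

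Wfdc17 also differed between runs. Run 2 was higher by log2 2.56 (SE 0.24, adjusted p = 0.000714 in the same fit), or 4.43-fold in blood, 4.60-fold in bone marrow and 10.5-fold in spleen by CPM. A run difference was called in 387 of the tested genes (4.96%), and 117 of them had a smaller p. The other 4 members were not called between runs, with Slpi at log2 0.39 (adjusted p = 0.320), Timp2 at 0.33 (0.428), Wfdc21 at -0.74 (0.341) and Serpinb1a at -1.45 (0.169). Age, the version of the counting software and the day of the experiment all went with the run and cannot be told apart. Another pool of healthy blood, in the inflammation library, held 768 CPM of Wfdc17, below both runs, and 1059 CPM of Wfdc21, 4697 of Slpi, 150 of Timp2 and 11.6 of Serpinb1a. That library was a separate experiment, and its cells were kept by reference type: 408 of the 509 reached 3% of S100a8 and S100a9. They held a median of 2527 UMIs, against 809.5 and 826 in blood of runs 1 and 2. The values thus stand side by side without a test.

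To see how the antiproteases vary with maturity, cells were ordered by a score of 7 early genes (secondary granule genes such as Camp, Ngp, Ltf and Lcn2) against 7 late genes (such as Il1b, Cxcr2, Csf3r and Ccl6), none of them a member, and divided into 5 bins shared by all healthy libraries. Between bone marrow and blood all 7 early genes were called higher and all 7 late genes lower. The 2 least mature bins held 45.6% and 40.6% of bone marrow cells in run 1 and 27.8% and 54.5% in run 2, but 7.9% and 7.0% of blood cells in run 1 and 0.46% and 1.5% in run 2. Spleen was split by run: its least mature bin held 36.2% of cells in run 1 and 2.04% in run 2. Bins with fewer than 20 cells in a library were left out, which removed the most mature bin of bone marrow in both runs, the fourth bin of bone marrow in run 1 and the least mature bin of blood in run 2. Cells of the least mature bin also carried more UMIs (a median of up to 4244, against 764 to 914.5 in the most mature bin).

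Slpi was higher in the most mature than in the least mature bin of each library that had both. It stood at 918 to 1489 CPM in the least mature bin, over the 5 libraries that filled it, and at 6615 to 8600 CPM in the most mature, and the mean ratio was 6.53-fold (3 libraries). In the second bin the 6 libraries were close, between 3352 and 4238 CPM, although they came from 3 tissues. Bone marrow cells of the third bin (6157 and 5587 CPM) were nearer to blood cells of that bin (7501 and 7102) than to bone marrow cells of the first bin (1272 and 1139). Within the second bin bone marrow held 1.03 and 0.87 times the Slpi level of blood, against 0.37 in the whole libraries.

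Wfdc17 spanned the widest range. It stood at 12.7 to 27.0 CPM in the least mature bin and at 1619 to 5929 CPM in the most mature, a mean ratio of 95.1-fold in 3 libraries. Here a difference between tissues remained within a bin: in the third bin bone marrow held 440 CPM against 1625 in blood of run 1, and 1474 against 5213 in run 2. The difference between runs remained as well, since the most mature bin of blood held 1619 CPM in run 1 and 5475 in run 2, and that of spleen 1693 and 5929. A difference between runs was thus present among the most mature cells too.

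Wfdc21 and Serpinb1a had the opposite order. Wfdc21 stood at 8798 to 11663 CPM in the least mature bin and at 1228 to 1917 in the most mature, a 6.60-fold mean ratio in 3 libraries. Spleen and blood of the third bin were alike (2299 and 2344 CPM in run 1, 3312 and 3146 in run 2), and bone marrow of that bin was higher (4713 and 4984). Serpinb1a stood at 529 to 971 CPM in the least mature bin, at 271 to 499 in the second and at 13.4 to 54.8 in the third, and its most mature bin held 0 to 37.8 CPM. The mean ratio between the ends was 24.5-fold in the 2 libraries that had UMIs in both. Wfdc21 was thus still abundant in the most mature cells, while Serpinb1a came close to 0.

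Timp2 peaked in the middle. It stood at 67.8 to 97.3 CPM in the least mature bin, at 201 to 275 in the second, at 205 to 374 in the third and at 127 to 174 in the most mature. In the fourth bin blood held 134 and 171 CPM, spleen 163 and 143, and bone marrow of run 2 342 CPM (21 UMIs). The highest values, 359 and 374 CPM, were those of bone marrow cells of the third bin, which held 1.75 and 1.69 times the level of blood in that bin. In the fourth bin of run 2 bone marrow held 2.00 times that level. The most mature bin held 1.90 times the Timp2 of the least mature (3 libraries). With 3 bins in place of 5 this ratio was 1.09 in the same 3 libraries, and it was 4.8 for Slpi and 54.7 for Wfdc17. Over the 5 libraries that filled both end bins of 3, the ratios were 1.26, 4.04 and 41.0, and 1 of them had more Timp2 in its least mature bin.

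**Figure D3:**
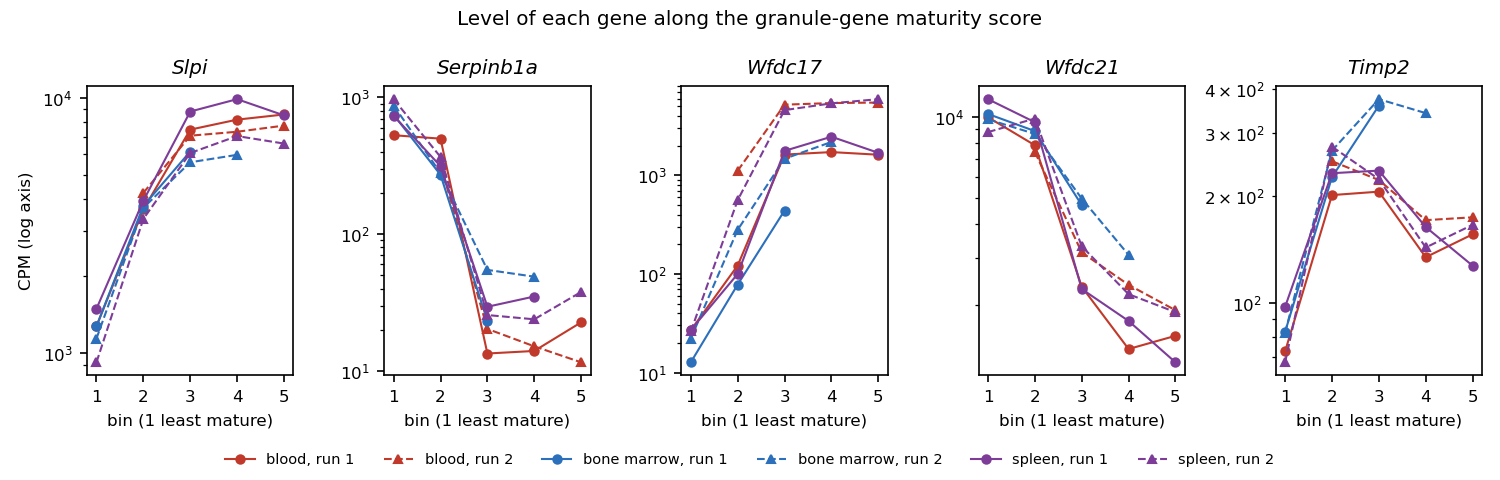
Transcript level of the 5 antiprotease genes (UMIs per 1000000, logarithmic axis) across 5 bins of neutrophil maturity, from least mature (bin 1) to most mature (bin 5), with a line for each healthy library. Slpi and Wfdc17 are higher in the mature bins, Wfdc21 and Serpinb1a are higher in the immature bins, and the highest Timp2 value of each library is in bin 2 or 3. A value of 0 (Serpinb1a, bin 5, spleen of run 1) cannot be drawn on this axis.

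The earliest cells were few but could be seen in bone marrow. Cells with at least 3 UMIs and 0.1% of their UMIs from cycling genes numbered 78 in run 1 and 200 in run 2. Slpi stood at 670 and 533 CPM in these cells, against 2683 and 3139 CPM in the other bone marrow cells, and Timp2 at 38.7 and 15.4 against 163 and 228. Wfdc17 was close to absent, at 15 and 28 UMIs (19.3 and 17.2 CPM). Wfdc21 was already at 7079 and 6754 CPM, and Serpinb1a was higher than in the other cells, at 908 and 950 CPM against 488 and 448. Both runs of bone marrow gave the same order for each of the 5 genes. In spleen of run 1, the other library with at least 20 such cells (20), Serpinb1a stood at 598 CPM (95% Poisson interval 473 to 747) against 529 in the other cells, Slpi at 483 against 3546 and Timp2 at 0 UMIs.

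Elane, Prtn3 and Ctsg encode elastase, proteinase 3 and cathepsin G, the serine proteases of primary granules. Serpinb1a inhibits all of them, and Slpi elastase and cathepsin G. Their transcripts were confined to few cells. Together they took 502 and 114 CPM in bone marrow and at most 12.9 CPM in any other library or condition. In each run 10 bone marrow cells with at least 5 such UMIs held most of them, 94.4% in run 1 and 88.8% in run 2. In these cells Serpinb1a stood at 1449 and 1731 CPM, against 532 and 523 CPM in the other bone marrow cells, whereas Slpi stood at 418 and 171 CPM against 2386 and 2705. Wfdc21 was at 3330 and 5159 CPM there, Wfdc17 at 4 and 0 UMIs and Timp2 at 4 and 1 UMIs. With 10 cells a run these are descriptions. The maturity score, which counts no primary granule gene, put 6 of these cells in the least mature bin and 4 in the second in run 1, and 9 and 1 in run 2, and Elane stood at 875 CPM in the second bin of run 1 against 107 in the first. Without them Serpinb1a in bone marrow of run 1 stood at 707 CPM in the first bin and 247 in the second.

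Of 11 serine proteases listed 5 were tested, and 2, Elane and Ctsg, were called higher in bone marrow than in blood and lower in spleen than in bone marrow. Both were at 0 UMIs in blood and spleen, and since the tables of run 1 do not list them there, no fold is given. Prtn3 differed by log2 3.47 (SE 1.10, adjusted p = 0.0622). It too is not listed in blood and spleen of run 1, so the size of its difference is uncertain. Of 14 metalloproteinases of the Mmp and Adam families, 9 were tested. Mmp8, the neutrophil collagenase, was higher in bone marrow than in blood (log2 2.09, SE 0.50, adjusted p = 0.0272), at 1898 and 2331 CPM against 907 and 474. Adam17, which sheds receptors and cytokines from the cell surface, was lower (log2 -0.96, SE 0.25, adjusted p = 0.0357). Mmp9, the gelatinase of tertiary granules, stood at 1181 and 1291 CPM in bone marrow and 1463 and 1238 in blood and was not called (log2 0.18, adjusted p = 0.667). The median difference of the 9 metalloproteinases was log2 -0.18, beside 0.02 over all tested genes. That of the 5 tested serine proteases was the value of Prtn3, with Elane and Ctsg above it, so its size is uncertain as well.

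Other genes listed as inhibitors were mostly low, with the exception of Pi16. Of 24 other serpins 5 were tested, and Serpine2 was called higher in bone marrow than in blood (log2 3.67, SE 1.02, adjusted p = 0.0431) at no more than 10.3 CPM. That gene is not listed in the blood table of run 1, so the size of its difference is uncertain. Serpinb6a was the highest of them, at 33.2 and 28.7 CPM in bone marrow and 18.4 and 10.1 in blood (log2 1.52, adjusted p = 0.0525). Of a list of 29 other genes, mostly for WAP domain, Kunitz or Kazal inhibitors, 4 were tested. Reck, a membrane-bound metalloproteinase inhibitor, was called higher in bone marrow (log2 2.38, SE 0.47, adjusted p = 0.0154), at 21.9 and 21.1 CPM against 7.4 and 3.7. Pi16, the most abundant of this list but not of these domain families, stood at 133 and 129 CPM in bone marrow and 240 and 258 in blood (log2 -0.64, adjusted p = 0.0578). In blood its CPM was above those of Timp2 and Serpinb1a. None of the 3 other Timps was tested. No gene of these lists was called between spleen and blood, and between spleen and bone marrow only Elane and Ctsg were.

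Shares of cells were compared after thinning each cell to 500 UMIs. Slpi was detected in 85.9% and 90.6% of cells from blood, in 74.6% and 85.5% from spleen and in 66.1% and 69.4% from bone marrow (94.1% and 96.3% in blood, 96.3% and 96.2% in bone marrow without thinning). Wfdc21 was detected in 94.9% and 94.7% of bone marrow cells and in 51.3% and 55.0% of blood cells. Wfdc17 was seen in 26.7% and 58.4% of blood cells and in 2.57% and 10.3% of bone marrow cells, Serpinb1a in 14.1% and 14.5% of bone marrow cells and 2.66% and 0.844% of blood cells, and Timp2 in 7.34% to 11.2% of cells in every healthy library. In 716 cells of spleen of run 2 that fell outside the neutrophil rule and carried T or NK cell markers, taken here as a background, the shares were 5.73% for Slpi, 3.07% for Wfdc17, 1.82% for Wfdc21, 2.09% for Timp2 and 0.978% for Serpinb1a (median of 1927.5 UMIs before thinning). In 711 cells of blood of run 2 with erythroid markers they were 9.42% for Slpi, 5.77% for Wfdc17, 1.69% for Wfdc21, 0.281% for Timp2 and 0.141% for Serpinb1a. Timp2 stood at 47.9 CPM (69 UMIs) in the cells with T or NK cell markers and at 5.66 CPM in those with B cell markers, so its share in the former is not that of a like background in all cells. The share for Serpinb1a in blood of run 2 lay between these backgrounds, although its level there was 35.3 CPM against 4.35 CPM in the cells with erythroid markers of that library. The share for Wfdc17 in bone marrow of run 1 lay below both, which come from libraries of run 2 with more Wfdc17. In run 1 it was seen in 1 of 28 blood and 0 of 26 spleen cells with T or NK cell markers, which are too few to set a background. Nothing is read from either share, and the remaining shares were above both. Cells with B cell markers were not used as a background. In blood of run 2 they held 906 CPM of Slpi and 405 of Wfdc17, against 261 and 171 in cells with erythroid markers. In bone marrow of run 2 they held 239 CPM of Serpinb1a, against 538 in neutrophils. In blood of run 1, 26 cells with fewer than 500 UMIs were left out. The shares depend on the depth: after thinning to 1000 UMIs, which left out 879 and 2675 blood cells and no bone marrow cell, Serpinb1a was seen in 13.3% and 2.81% of blood, 29.9% and 11.5% of spleen and 27.3% and 26.1% of bone marrow cells. Most cells of spleen of run 2, with a median of 775 UMIs, were left out at this depth as well. The 2.81% in blood of run 2 was then above both backgrounds (0.305% and 0.714%). Wfdc17 stood at 26.2% and 66.8% in blood and 4.81% and 15.0% in bone marrow at that depth, and Timp2 at 11.0% to 20.4%.

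The spread over cells was also described. The variance of the thinned counts was 2.68 (bone marrow of run 1, at a mean of 0.0415 UMIs a cell) to 9.20 times their mean for Wfdc17, 1.81 to 3.31 times for Wfdc21 and 1.99 to 3.47 times for Slpi, 1.05 to 1.58 times for Serpinb1a and 0.987 to 1.10 times for Timp2, where random sampling of UMIs gives 1. The means differed widely, from at most 0.122 UMIs a cell for Timp2 and 0.171 for Serpinb1a to 1.19 to 4.74 for Slpi and Wfdc21, so these ratios are not compared between genes. In blood the 10% of cells with most Wfdc17 held 70.9% of its UMIs in run 1 and 49.5% in run 2. For Slpi that portion held 29.5% and 26.6%, and for the rare Timp2 100% in both runs. The portion thus depends on how rare a gene is and is not compared between genes either.

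The inflammation library asked how the antiproteases stood in neutrophils that had entered an inflamed site. Each condition is 1 pool of cells in that library, so no test was possible, and intervals given below cover counting error only. Levels were set against the healthy blood of the same library, and changes of at least 2-fold were counted over genes with 20 or more UMIs in the 2 conditions together. The median gene was shifted in each condition, by log2 -0.42 in arthritis blood, -0.54 in joint, -0.96 in lung and -1.02 in peritoneum, so a fold below 1 is in part that of most genes. Folds scaled by TMM effective library sizes, which take this shift out, are therefore given too.

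Wfdc17 was higher in every inflamed condition than in the healthy blood of that library, under both scalings. It stood at 768 CPM in healthy blood, 1864 in arthritis blood, 1453 in joint, 3292 in lung and 1994 in peritoneum. The folds were 2.43 (95% interval 2.26 to 2.61), 1.89 (1.77 to 2.03), 4.29 (3.98 to 4.62) and 2.60 (2.39 to 2.82), and 3.26, 2.59, 8.27 and 5.08 by TMM. The lung thus held the most Wfdc17 of the 5 conditions, 1.65 times that of the peritoneum, and the joint held 0.78 times that of arthritis blood. Healthy blood of runs 1 and 2, separate experiments with another cell rule, held 1161 and 5142 CPM. Every inflamed level thus lay within the range of the healthy blood pools.

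Wfdc21 was higher in 3 of the 4 conditions. It stood at 1059 CPM in healthy blood, 2386 in arthritis blood, 1038 in joint, 2204 in lung and 2919 in peritoneum, with folds of 2.25 (2.12 to 2.40), 0.98 (0.92 to 1.04), 2.08 (1.95 to 2.23) and 2.76 (2.57 to 2.95). By TMM these were 3.03, 1.34, 4.02 and 5.39, so its direction in the joint depends on the scaling. Joint cells held 0.43 times the Wfdc21 of arthritis blood cells (0.42 to 0.45), a comparison in which the median gene moved by only log2 -0.04. Healthy blood of runs 1 and 2 held 4015 and 2643 CPM of Wfdc21, so the higher levels here also lay within the range of healthy blood pools.

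Slpi was highest in healthy blood on the CPM scale. It stood at 4697 CPM there, 4250 in arthritis blood, 2377 in joint, 1740 in lung and 2289 in peritoneum. The folds were 0.90 (0.88 to 0.94), 0.51 (0.49 to 0.52), 0.37 (0.35 to 0.39) and 0.49 (0.46 to 0.51), and by TMM 1.22, 0.69, 0.72 and 0.95, so that the direction in arthritis blood turned and that in the peritoneum nearly vanished. Between the arthritis samples, where the scaling matters little, joint cells held 0.56 times the Slpi of blood cells (0.55 to 0.57). Slpi and Wfdc17 parted here: lung neutrophils had the lowest Slpi on the CPM scale and the highest Wfdc17, whereas by TMM Slpi was lowest in joint (0.69 against 0.72 in lung).

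Timp2 and Serpinb1a were the rarest members. Timp2 stood at 150 CPM in healthy blood, 283 in arthritis blood, 350 in joint, 109 in lung and 87.0 in peritoneum, and its folds of 1.88 (1.59 to 2.24) in arthritis blood and 2.33 (2.00 to 2.74) in joint were 2.53 and 3.19 by TMM. In lung (0.73) and peritoneum (0.58) the direction turned under TMM (1.40 and 1.13). Serpinb1a had 13 UMIs in healthy blood, 20 in arthritis blood, 43 in joint, 64 in lung and 21 in peritoneum, or 11.6, 7.43, 4.18, 48.4 and 22.3 CPM. Lung held 4.19 times the level of healthy blood (2.29 to 8.30) and 2.17 times that of peritoneum (1.31 to 3.75), and joint 0.36 times that of healthy blood (0.19 to 0.73). The peritoneum held 1.93 times (0.92 to 4.19) and arthritis blood 0.64 times that of healthy blood. By TMM the folds of Serpinb1a were 0.86 in arthritis blood, 0.49 in joint, 8.09 in lung and 3.77 in peritoneum. Healthy blood of runs 1 and 2 held 174 and 35.3 CPM of Serpinb1a, so its lung level lay within the range of healthy blood pools.

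In the joint markers of other cell types moved too. Of the 9 monocyte or macrophage markers with enough UMIs, 6 were at least 2-fold higher than in healthy blood (Ly6c2, Fcgr1, C1qa, C1qb, C1qc and Cx3cr1) and 1, Csf1r, was lower. The platelet gene Pf4 and the dendritic cell gene Bst2 were at least 2-fold higher as well, whereas Ighm of B cells, Cd3d of T cells and Ccr3 of eosinophils were at least 2-fold lower. The summed list of 13 stood at 301 CPM in joint and 283 to 389 in the other conditions, and of its genes only Chil4 was at 0 in joint. Without cells that held other cell type markers, the joint folds were 0.50 for Slpi, 1.91 for Wfdc17, 1.04 for Wfdc21, 2.44 for Timp2 and 0.56 for Serpinb1a.

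**Figure D4:**
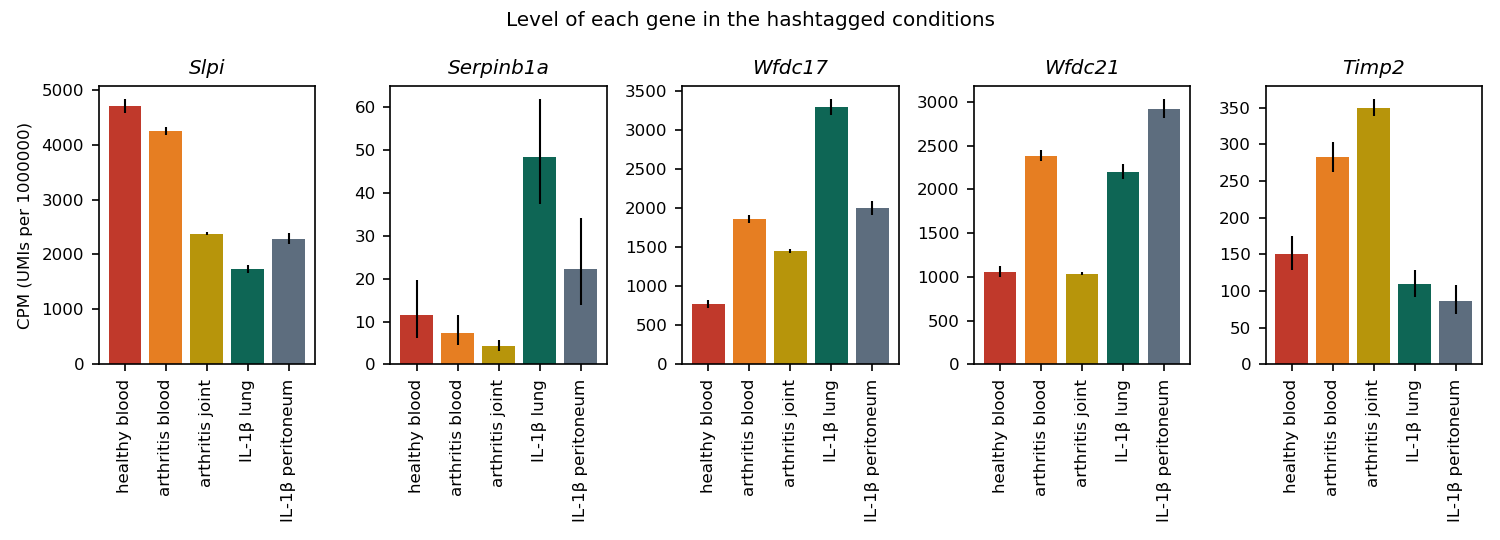
Transcript level of each antiprotease gene (UMIs per 1000000) in the 5 conditions of the inflammation library, with 95% Poisson intervals for counting error. Wfdc17 is highest in IL-1β lung (3292), Slpi in healthy blood (4697), Timp2 in arthritic joint (350) and Serpinb1a in lung (48.4).

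By the 2-fold count 2 members were higher in arthritis blood (background 1.21% of genes) and none lower (11.3%). In joint 1 was higher (11.8%) and 1 lower (25.9%), in lung 3 were higher (10.9%) and 1 lower (49.3%), and in peritoneum 2 were higher (10.2%) and 1 lower (51.8%). Under TMM the members split into 3 higher and 0 lower in arthritis blood, 2 and 1 in joint, 3 and 0 in lung and 3 and 0 in peritoneum, where 3.82%, 17.2%, 22.4% and 21.5% of genes were higher and 3.8%, 11.4%, 21.7% and 22.5% lower. Of the early granule genes, 7 of 7 were at least 2-fold higher in lung and 6 of 7 in peritoneum, and none was lower in either. In arthritis blood 2 of 5 counted were higher and 1 lower (Chil3, at 11 and 12 UMIs), and in joint 1 of 6 was higher (Ltf) and 2 were lower (Chil3 and Cd177). Of the metalloproteinases with enough UMIs, 3 were at least 2-fold higher and 3 lower in joint (of 10) and in lung (of 9), 2 were lower in peritoneum (of 8) and none changed by 2-fold in arthritis blood (of 9). Adam8 was 2.77 times its healthy blood level in joint and 2.85 times in lung (3.8 and 5.5 by TMM), and Adam19 was 0.28 times in joint and 2.54 times in lung (0.38 and 4.91 by TMM). Mmp8 was 0.42 times in joint (0.57 by TMM), and Mmp9 was 0.24 times in lung and 0.29 times in peritoneum (0.47 and 0.57 by TMM). Pi16 was 0.37 times its healthy blood level in joint, 0.15 times in lung and 0.46 times in peritoneum, or 0.50, 0.30 and 0.89 by TMM. Mmp9 and Pi16 in the peritoneum and Mmp8 and Pi16 in the joint were thus not past 2-fold by TMM. Other serpins were seldom counted: Serpinb2 had 35 UMIs in lung and 13 in peritoneum, and Serpinb8 43 UMIs in joint, and neither had any in healthy blood, which at this depth does not show a level of 0. Cycling genes passed the UMI limit in none of the 4 comparisons with healthy blood.

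After thinning to 500 UMIs Slpi was detected in 68.4% of healthy blood cells, 73.0% of arthritis blood cells, 51.2% of joint cells, 36.6% of lung cells and 51.0% of peritoneal cells. Wfdc17 was detected in 17.5%, 35.0%, 28.7%, 33.9% and 30.1% of cells in the same order and Wfdc21 in 26.5%, 53.8%, 30.2%, 36.8% and 47.6%. The share of cells with Timp2 was highest in joint, at 15.9%, and lowest in peritoneum, at 4.11%. Serpinb1a was seen in 0.123% (arthritis blood) to 1.84% (lung) of cells. Too few cells assigned to a condition were of another type to measure a background in this library, and as the shares of Serpinb1a overlap its healthy backgrounds (0.978% and 0.141%) nothing is read from them. The top 10% of cells held 60.1% to 80.3% of the Wfdc17 UMIs, a portion that also rises as fewer cells hold a UMI. The shares of cells depend on the depth. After thinning to 1000 UMIs Slpi was detected in 91.2%, 89.6%, 69.3%, 60.8% and 81.4% of cells in the same order. Healthy blood then stood above arthritis blood. For Wfdc21 healthy blood (49.4%) then stood above joint (45.1%), and for Wfdc17 lung (51.4%) above arthritis blood (50.7%). Timp2 stayed highest in joint (25.5%) and lowest in peritoneum (6.49%). That depth left out 61 (peritoneum) to 155 cells (healthy blood) of a condition.

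Across the 11 profiles (6 healthy libraries and 5 conditions) the genes whose log2 levels followed a member most closely, out of 2046 compared, included St8sia4, Rnf167, Myadm and Kdelr1 for Slpi (Pearson r of 0.993 down to 0.985). For Serpinb1a they were the granule genes Camp, Chil3 and Ngp with Adpgk and Itgb2l (0.985 to 0.932), and for Wfdc17 the cytokine gene Il1b with Il13ra1, Tpd52, Steap4 and Btg1 (0.963 to 0.945). For Wfdc21 they were Triobp, Ngp, Lcn2, Adpgk and Gyg (0.938 to 0.887), and for Timp2 Ostf1, Cmpk2, Lasp1, Cotl1 and Plekhf2 (0.921 to 0.888). Among the members themselves Serpinb1a and Wfdc21 were the most alike (r = 0.80), and Slpi and Serpinb1a the most opposed (r = -0.80). The profiles share libraries, reagents and depth, so these values describe likeness only.

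Cells of the same libraries that fell outside the neutrophil rule show where else the 5 transcripts were counted. In spleen of run 2, where these cells were most numerous, Slpi stood at 5924 CPM in neutrophils and at 221, 146 and 472 CPM in cells with B cell, T or NK cell and monocyte markers. Wfdc21 stood at 3343 CPM against 48.6, 44.4 and 49.7, so the ratio of Slpi to Wfdc21 was not the same in these cells. Wfdc17 reached 1068 CPM in cells with monocyte markers against 4648 in neutrophils. Serpinb1a was higher in cells with B cell markers (350 CPM, 866 UMIs in 1423 cells) than in neutrophils (139 CPM), and it was at 6.94 CPM in cells with T or NK cell markers.

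**Figure D5:**
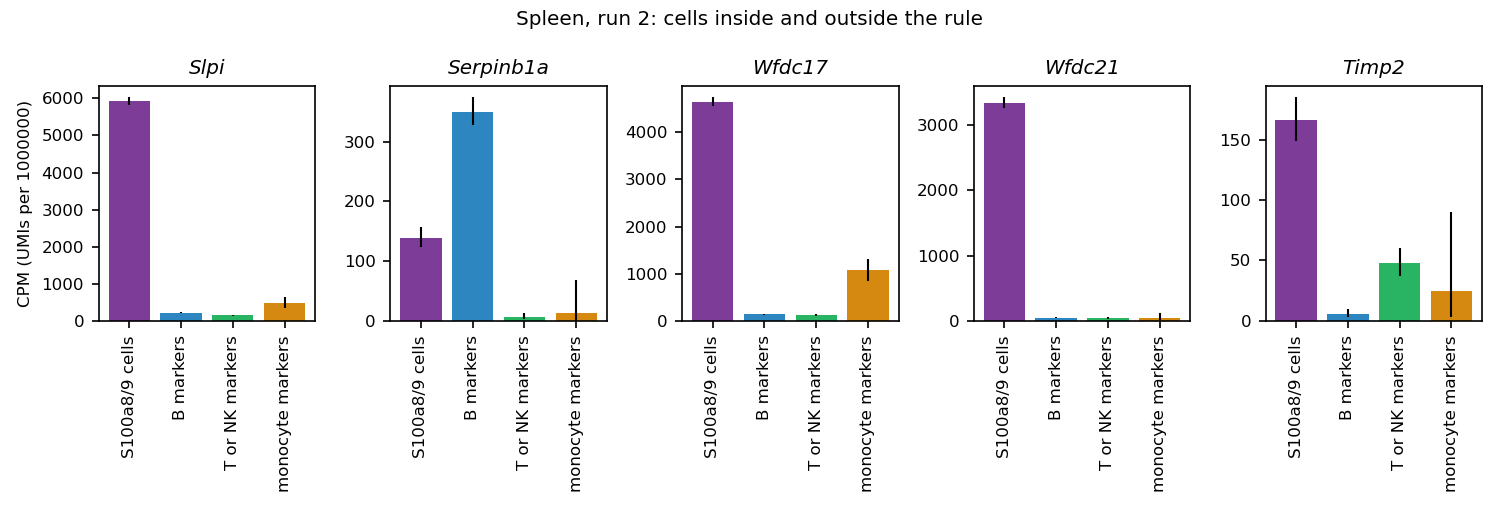
Transcript level of the 5 antiprotease genes (UMIs per 1000000) in spleen of run 2, in cells inside the neutrophil rule and in cells outside it with markers of B cells, T or NK cells or monocytes. Bars are levels with 95% Poisson intervals, and Serpinb1a alone is highest outside the neutrophils, at 350 CPM in cells with B cell markers.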

How the data were processed

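The authors deposited UMI counts for each gene symbol and cell, which Cell Ranger had given on mm10 by the submitters' processing notes, with barcodes of hashtag doublets and of cells without a hashtag already left out of the inflammation library. Reads of 1 molecule are collapsed into 1 UMI, so a count is a count of molecules. Tables of run 1 list 7346 to 8657 genes and those of run 2 list 28692, and a gene not listed entered as 0. Of 7809 genes tested, 6588 are listed in all 6 healthy tables. All columns of per-sample values were used (0 were left out). The members and lists were chosen with earlier results of these data known. Genes named are the members, up to 4 genes of each fixed list with the highest healthy level together with those called, and the 5 genes most like each member, of which 1 is not reported here.

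UMIs were summed per library over kept cells. Tissues were compared with edgeR 4.0.16 (quasi-likelihood test, TMM factors, its filter on low counts, run as a block) in R 4.3.3, with p-values adjusted by Benjamini-Hochberg over all genes tested and called at 0.05. DESeq2 1.42.0 served as an alternative. The pairing comes from the methods, since the tissues of a run share mice, and deviations from tissue means correlated at 0.597 (blood and bone marrow), 0.550 (blood and spleen) and 0.631 (spleen and bone marrow) over 7809 genes. With 2 pools a tissue and the run as a block, p-values measure how far the differences between tissues vary from run to run. The shift that all tissues of a run share is taken out. Conditions were compared by CPM with exact Poisson and conditional binomial 95% intervals, in Python 3.11.15 with scipy 1.17.1. No doublet caller was run and free RNA was not removed. Likeness is Pearson's r of log2(CPM + 10), centred within run 1, run 2 and the inflammation library, over genes with a mean of at least 50 CPM. Cells were thinned once at random. The sources differ on the version of the reagents and on the sequencer of these libraries. Alternatives changed the cell rule, filters, factors, test and bins, and left out each library. Leaving out cells with other markers but for Ly6c2, and keeping only genes listed in all 6 tables, were added after seeing the data.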

Additional observations from a re-analysis of the deposited data

Results flagged for a closer look

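Timp2 had opposite directions in the 2 runs between bone marrow and blood: the log2 ratio of CPM was -0.0746 in run 1 and 0.0536 in run 2. This difference was not tested, and both values are small beside the standard error of 0.23 of the fitted difference.

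The transcripts of 2 members were also counted in cells outside the neutrophil rule, which entered no comparison between tissues. Wfdc17 stood at 1371 CPM in blood of run 1, 751 CPM in bone marrow of run 1 and 869 CPM in bone marrow of run 2, in cells outside the neutrophil rule with monocyte or macrophage markers. Its neutrophil levels there were 1161, 61.5 and 282 CPM. In run 2 the same kind of cells held less than neutrophils in blood (1592 against 5142 CPM) and in spleen (1068 against 4648 CPM). Serpinb1a stood at 405 CPM in blood and 350 CPM in spleen of run 2, in cells with B cell markers, against 35.3 and 139 CPM in neutrophils, whereas in bone marrow of that run such cells held 239 CPM against 538. In spleen of run 2 cells with T or NK cell markers held 6.94 CPM. Fewer than 20 cells carried T or NK cell markers in the run 1 marrow library and in the run 2 blood library, so no such level is given there.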

How the results depend on the processing

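Without the replicate block, bone marrow against blood gave 164 genes called in place of 1693 (members called 0, with 4 at an unadjusted p below 0.05), spleen against blood 0 in place of 4 (456 unadjusted) and spleen against bone marrow 0 in place of 215 (663 unadjusted, members 0), all by edgeR. All 164 were among the 1693. DESeq2 called 28 genes between spleen and blood (members 1) and 2 members between spleen and bone marrow. Between spleen and blood, no low-count filter gave 18 genes, keeping genes listed everywhere gave 11, and leaving out cells with other markers but for Ly6c2 0 (597 unadjusted). Between spleen and bone marrow the mitochondrial and gene number filter gave 115 genes, and leaving out cells with other markers 904 (members 4). The arthritic joint then had 1 member past 2-fold. Leaving out 1 library gave 0 to 2626 genes between bone marrow and blood (members 0 to 4), 0 to 245 between spleen and blood (members 0 to 1) and 0 to 1250 between spleen and bone marrow (members 0 to 4). The counts of 0 came without blood of run 1 or of run 2, and a lone library of a tissue was taken to vary like the others. Timp2 between spleen and blood turned without the block (log2 -0.017), without the low-count filter (-0.010) and with S100 limits of 1% (-0.045) and 5% (-0.00079), and ranged from -0.32 to 0.32 with 1 library left out. Wfdc17 between spleen and blood was 0.031 without cells with other markers. Serpinb1a (-2.37 to 0.00011) and Timp2 (-0.58 to 0.0086) between spleen and bone marrow turned with 1 library left out. The cause was not tested. Of 150 other settings of member differences between tissues 133 kept direction and call, as did 66 of 90 with 1 library left out. Depth limits Serpinb1a in the conditions (13 to 64 UMIs).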
